A study of Homo sapiens with 6 samples.

Results

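The probes described here read mature miRNAs of the embryonic stem cell and placental clusters: the miR-302 and miR-367 family, the miR-371 to miR-373 cluster and the large placental cluster on chromosome 19. They were chosen by name, as the rows without an asterisk and without a precursor suffix that carry one of these clusters' miRNA numbers. Rows named in this way are called guide strands here. The name does not settle the strand's role, and both arms of a hairpin can be among them. The rule gave 7 of the 386 guide-strand probes, among 581 probes in all: miR-302d, miR-302e, miR-371-5p, miR-373, miR-520a-3p, miR-524-5p and miR-525-3p. Other numbers of these clusters gave no member, and of their rows only 2 of miR-518, a star strand and a precursor, are described below beside the members. The values had been through a class-specific filter, and whether it took out rows of these clusters is unknown. The label "stem cell and placental" comes from where these clusters are known to be active, and the data hold no stem cell or placental sample against which to check it.

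The samples were Hep3B cells, a human hepatocellular carcinoma line. They had been transfected with the empty plasmid pcDNA3.1 (Mock, 3 arrays) or with the same plasmid with the HDAC6 insert (HDAC6, 3 arrays), HDAC6 being a deacetylase of the cytoplasm known for its action on tubulin. Per the labels, RNA of 3 extractions per condition was mixed into a pool, so the 3 arrays of a group may be repeated hybridizations of 1 pool, and every p-value below measures a spread between arrays that may be technical. The time from transfection to harvest was not given in the sources used here, and HDAC6 itself was not measured. Of the liver markers, miR-122 had a mean log2 signal of 7.42 ± 0.20 in Mock and 7.82 ± 0.27 in HDAC6 (SD, n = 3), and miR-885-5p one of 7.54 ± 0.19 and 7.03 ± 0.46. Neither differed past the threshold (limma, adjusted p = 0.166 and 0.15), and miR-122, which defines hepatocytes, stood close to the array medians of 7.51 to 7.58. Arrays correlated across probes at r = 0.922 to 0.959 within groups and at 0.779 to 0.848 between them.

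MiRNAs guide a silencing complex to messenger RNAs mainly through the seed, a short stretch near their 5′ end. The miR-302 and miR-367 cluster and the miR-371 to miR-373 cluster are abundant in human embryonic stem cells, where they favour rapid passage through the cell cycle and hold back differentiation, and miR-371 to miR-373 are also high in germ cell tumours. The chromosome 19 cluster is specific to primates, is imprinted with expression from the paternal copy, and is active mainly in the trophoblast of the placenta.

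The mature sequences are shown because the members fall into seed groups that cut across the genomic clusters. They are RefSeq's, on GRCh38.p14, written 5′ to 3′ with the seed (bases 2 to 8) in capitals. All 7 members were matched, miR-302d and miR-373 to their 3p arms, which the older names without an asterisk stand for, and miR-371-5p to the entry now named miR-371a-5p.
miR-302e: uAAGUGCUuccaugcuu
miR-302d: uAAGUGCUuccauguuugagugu
miR-373: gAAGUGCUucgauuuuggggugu
miR-520a-3p: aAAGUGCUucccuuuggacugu
miR-524-5p: cUACAAAGggaagcacuuucuc
miR-525-3p: gAAGGCGCuucccuuuagagcg
miR-371-5p: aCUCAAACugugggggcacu

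The first 4 share the seed AAGUGCU, which 12 of 2370 mature entries in the RefSeq table hold (0.506%), although they come from 4 loci that lie on chromosomes 4, 11 and 19. The other 3 members each have a seed of their own. MiR-302e and miR-302d are nearly the same molecule over the 17 bases of miR-302e: 16 of them are identical, and the single difference is C15U, with positions counted from the 5′ end and the miR-302e base first. Their first 14 bases are also those of miR-302a-3p, miR-302b-3p and miR-302c-3p. MiR-373 matches miR-302e at 12 of these 17 positions and miR-520a-3p at 11. The array's probe sequences were not used here, and miRNAs this alike can bind each other's probes, so the values of these 4 probes are uncertain to that extent.

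The loci differ more than the mature sequences do. MiR-302d lies at chr4:112648006-112648028 on the minus strand, inside the spans of the protein-coding gene LARP7 and the lncRNA gene MIR302CHG. MiR-302e lies far from that cluster, at chr11:7234771-7234787 on the plus strand, inside no other gene span of the RefSeq table. The 5 members on chromosome 19 are all on the plus strand. The placental members are miR-520a-3p at chr19:53690933-53690954, miR-525-3p at chr19:53697584-53697605 and miR-524-5p at chr19:53711017-53711038, and the pair miR-371-5p and miR-373 follows at chr19:53787680-53787699 and chr19:53788748-53788770. The hairpins of miR-520a and miR-371a lie inside lncRNA spans, LOC107985342 and LOC124904767, and those of miR-525, miR-524 and miR-373 inside none. The table gives spans only, so exon and intron were not told apart. Nor was the strand of these genes compared with that of the miRNAs, so a span need not mean a host gene. Between the miR-524 and miR-371a hairpins lie 76.6 kb, whereas the miR-371a and miR-373 hairpins are 0.963 kb apart.

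The hairpins of the miR-302 pair are shown, mature part in capitals, because nearly the same stretch is cut from opposite arms.
miR-302e hairpin: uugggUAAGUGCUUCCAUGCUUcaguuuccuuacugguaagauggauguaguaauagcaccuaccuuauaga
miR-302d hairpin: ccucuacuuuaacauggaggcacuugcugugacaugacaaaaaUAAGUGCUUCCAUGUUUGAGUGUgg

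In miR-302e the mature stretch spans bases 6 to 22 of a hairpin of 72, in the 5′ arm. In miR-302d it spans bases 44 to 66 of 68, in the 3′ arm.

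Of the 7 members, 1 rose in HDAC6 (miR-302e), 1 fell (miR-524-5p) and 5 did not pass the test (limma on all 581 probes, Benjamini-Hochberg adjusted p under 0.05). Over all probes 45.8% passed, 21.3% higher and 24.4% lower. Changes past the threshold were thus common among these probes, and 2 of 7 is no larger a share than theirs. Per the labels a class-specific filter had been applied, by a rule that was not given. These shares therefore describe the probes that remained, not all probes of the array. Among guide strands 50.3% passed, 20.7% higher and 29.5% lower. Of the 7 members, 6 had a log2 fold change below 0, among them miR-373 and miR-525-3p, which turned with repeated quantile normalization. The same sign was found in 54.2% of all probes. The members' median log2 fold change was -0.31, against -0.21 for all guide strands and -0.09 for all probes. No overlap between the groups was seen in 4 of the 7 members and in 56.8% of all probes.

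**Figure D1:**
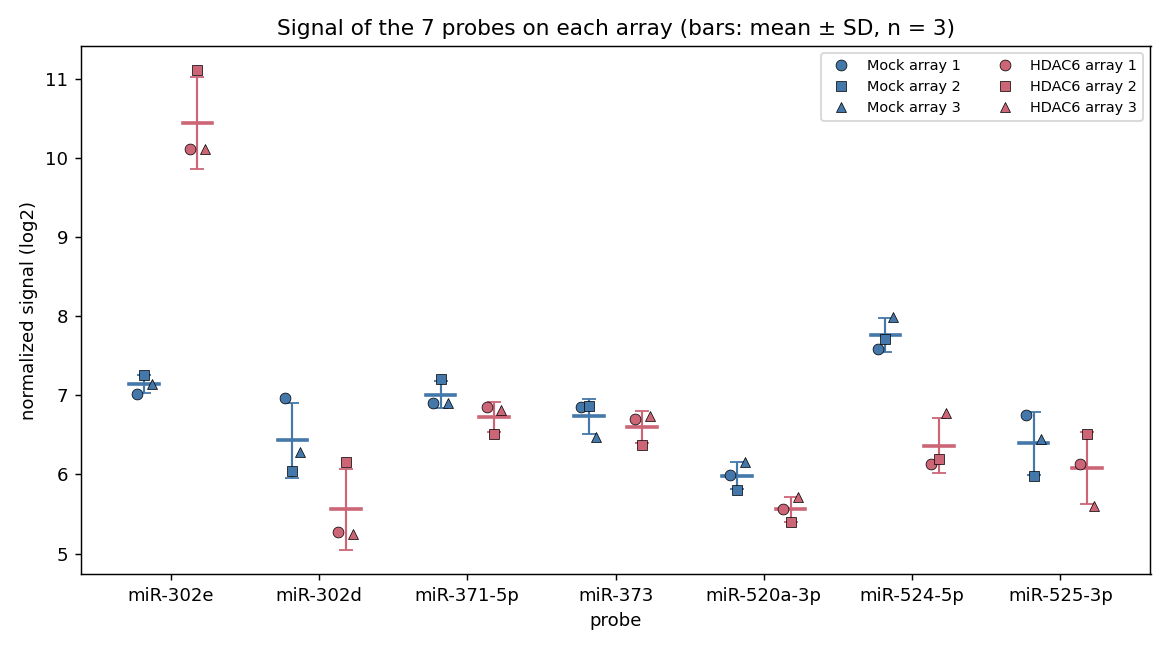
Normalized log2 signal (vertical axis) of the 7 probes (horizontal axis) on each array, blue for Mock and red for HDAC6, with the array number given by the marker and bars for the mean ± SD of 3 arrays. The miR-302e signals lie between 7.02 and 7.26 in Mock and between 10.11 and 11.11 in HDAC6, and the miR-524-5p signals are lower on every HDAC6 array than on any Mock array.

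The probe for miR-302e had log2 signals of 7.02, 7.26 and 7.15 on Mock arrays 1, 2 and 3 and of 10.11, 11.11 and 10.11 on HDAC6 arrays 1, 2 and 3. The groups stood far apart, the Mock arrays lay close together, and HDAC6 array 2 was the highest. The mean went from 7.14 ± 0.12 to 10.44 ± 0.58 (SD, n = 3), 9.85-fold or a log2 fold change of 3.30 (SE 0.299, 95% interval 2.61 to 3.99, limma, adjusted p = 0.0012). This was the largest rise among the 581 probes, followed by that of miR-574-5p at 2.44 on the same scale. The share of probes on the array with a lower signal than the miR-302e probe was 33.4% to 43.9% on the Mock arrays and 88.8% to 95.01% on the HDAC6 arrays. The log2 fold change was 2.66 with an offset added to the linear signals before the log, and the call held under each of the 15 alternatives tried.

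MiR-302d, from the miR-302 and miR-367 cluster proper, had log2 signals of 6.96, 6.04 and 6.28 in Mock and of 5.28, 6.15 and 5.24 in HDAC6. The groups overlapped through HDAC6 array 2, which stood above Mock array 2, while HDAC6 arrays 1 and 3 lay below every Mock array. The log2 fold change was -0.87 (SE 0.338, 95% interval -1.65 to -0.09, limma, adjusted p = 0.0674), so miR-302d did not pass although its interval before adjustment ended below 0. The call turned on HDAC6 array 2: without it the value was -1.17 and passed (adjusted p = 0.023). It also passed with array weights, at -1.24 (adjusted p = 0.00823), and with an intensity trend and robust priors (adjusted p = 0.0455). In the other direction, the value shrank to -0.53 with repeated quantile normalization (adjusted p = 0.167) and to -0.35 with the offset (adjusted p = 0.126), and it was -0.60 without Mock array 1 (adjusted p = 0.202).

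Thus the probes for miR-302e and miR-302d, whose mature sequences differ at 1 of 17 positions, had log2 fold changes of opposite sign. Within arrays, the log2 signal of miR-302e minus that of miR-302d was 0.71 ± 0.59 in Mock and 4.88 ± 0.07 in HDAC6 (SD, n = 3). Among the HDAC6 arrays both probes were highest on array 2, so that their difference varied little within that group. The change of miR-302e exceeded that of miR-302d by 4.17 on the log2 scale. An exact two-sided permutation test gave p = 0.1, also after adjustment over the 6 pairs formed with miR-302e, and 0.1 is the smallest p that 3 arrays against 3 allow. With the miR-302e groups so far apart, this floor was likely in advance for every pair, so the tests add little to the values.

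Neither member of the miR-371 to miR-373 cluster passed. The miR-371-5p probe had log2 signals of 6.91, 7.21 and 6.91 in Mock and of 6.86, 6.51 and 6.82 in HDAC6. The HDAC6 arrays were all lower, though arrays 1 and 3 by little. The log2 fold change was -0.28 (SE 0.2, 95% interval -0.74 to 0.19, limma, adjusted p = 0.286). It was -0.17 without HDAC6 array 2, -0.18 without Mock array 2 and -0.11 with repeated quantile normalization. MiR-373, which shares the miR-302 seed and is known for its part in germ cell tumours and cell migration, had log2 signals of 6.85, 6.87 and 6.48 in Mock and of 6.71, 6.37 and 6.74 in HDAC6. The groups overlapped, with Mock array 3 and HDAC6 array 2 the lowest. The log2 fold change was -0.13 (SE 0.211, 95% interval -0.62 to 0.36, limma, adjusted p = 0.656), and it turned to 0.08 with repeated quantile normalization. Leaving out 1 array gave values from -0.26 (without Mock array 3) to -0.01 (without HDAC6 array 2). The change of miR-302e exceeded that of miR-371-5p by 3.58 and that of miR-373 by 3.43 on the log2 scale (exact permutation p = 0.1 for each, the smallest possible, adjusted p = 0.1).

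In the placental cluster, miR-524-5p had log2 signals of 7.58, 7.71 and 7.996 on Mock arrays 1, 2 and 3 and of 6.13, 6.20 and 6.77 on the HDAC6 arrays. The groups were clearly separate, and array 3 was the highest of each group. The mean fell from 7.76 ± 0.21 to 6.37 ± 0.35 (SD, n = 3), a log2 fold change of -1.40 (SE 0.241, 95% interval -1.96 to -0.84, limma, adjusted p = 0.00397), which is 2.63-fold lower. Its fall ranked 36 among the 386 guide strands. The share of probes with a lower signal went from 51.0% to 59.5% on the Mock arrays to 16.4% to 33.9% on the HDAC6 arrays. The call held under each of the 14 alternatives that included this probe.

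The other placental members did not pass. MiR-520a-3p, which carries the miR-302 seed, had log2 signals of 5.99, 5.81 and 6.15 in Mock and of 5.57, 5.40 and 5.71 in HDAC6, so that all HDAC6 arrays were lower. The log2 fold change was -0.42 (SE 0.195, 95% interval -0.88 to 0.03, limma, adjusted p = 0.114) and only -0.05 with repeated quantile normalization. MiR-525-3p had log2 signals of 6.75, 5.98 and 6.45 in Mock and of 6.13, 6.51 and 5.61 in HDAC6, which overlapped, with Mock array 2 low and HDAC6 array 2 high. The log2 fold change was -0.31 (SE 0.302, 95% interval -1.01 to 0.39, limma, adjusted p = 0.43), and 0.001442 with repeated quantile normalization. Single arrays moved it: it was -0.07 without HDAC6 array 3, -0.13 without Mock array 1, and -0.52 without Mock array 2 or HDAC6 array 2. Missing the threshold does not show that these miRNAs stayed level, since the intervals run down to -0.88 and -1.01. The change of miR-302e exceeded that of miR-524-5p by 4.70, that of miR-520a-3p by 3.72 and that of miR-525-3p by 3.61 on the log2 scale (exact permutation p = 0.1 for each, the smallest possible, adjusted p = 0.1).

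**Figure D2:**
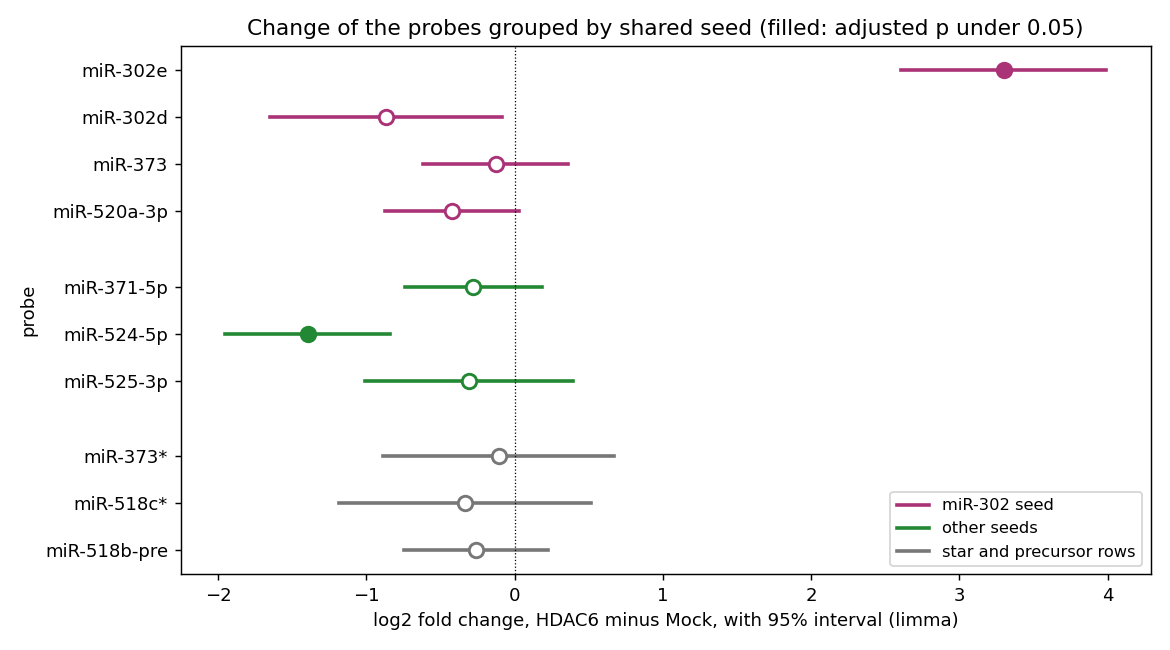
Log2 fold change, HDAC6 minus Mock, with its 95% interval (horizontal axis) for the 7 probes and for 3 star or precursor probes (vertical axis). The colours mark members with the miR-302 seed, members with other seeds, and the star or precursor probes of the same clusters. Filled points passed an adjusted p of 0.05: only miR-302e at 3.30 and miR-524-5p at -1.40, while the other 3 probes with the miR-302 seed lie at -0.87, -0.42 and -0.13.

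The shared seed did not come with a shared call. Among the 4 members with the seed AAGUGCU, miR-302e rose and the other 3 had log2 fold changes of -0.87, -0.13 and -0.42, none past the threshold. Low signal limits what can be said of the members: on each array 2 to 4 of the 7 lay below the 25th percentile of all probes. That percentile was 6.39 to 6.79 on the log2 scale, and no background or detection flag was used. Low signal also touches the called members, miR-302e less than miR-524-5p. MiR-524-5p, at 6.13 and 6.20, lay below the percentile on HDAC6 arrays 1 and 2 (6.394 and 6.459). The Mock signals of miR-302e, 7.02 to 7.26, lay below the Mock array medians of 7.51 to 7.56, though above the 25th percentile. The sizes of both changes are uncertain to that extent.

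Rows of the same clusters that read other products were also compared. The star strand miR-373*, the 5p arm of the miR-373 hairpin, had log2 signals of 6.90, 6.22 and 6.59 in Mock and of 6.91, 5.77 and 6.71 in HDAC6. These overlapped, and the log2 fold change of -0.11 (SE 0.336, limma, adjusted p = 0.824) turned sign under 4 alternatives. For miR-518c*, from the placental cluster, it was -0.33 (SE 0.366, adjusted p = 0.485), with HDAC6 array 3 above all Mock arrays. That value rested on single arrays, being -0.02 without HDAC6 array 2 and -0.75 without HDAC6 array 3 (adjusted p = 0.0631). The precursor probe miR-518b-pre stood at -0.26 (SE 0.21, adjusted p = 0.336), at -0.15 without Mock array 2, and at 0.08 with repeated quantile normalization. None of the 3 passed under any alternative tried.

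**Figure D3:**
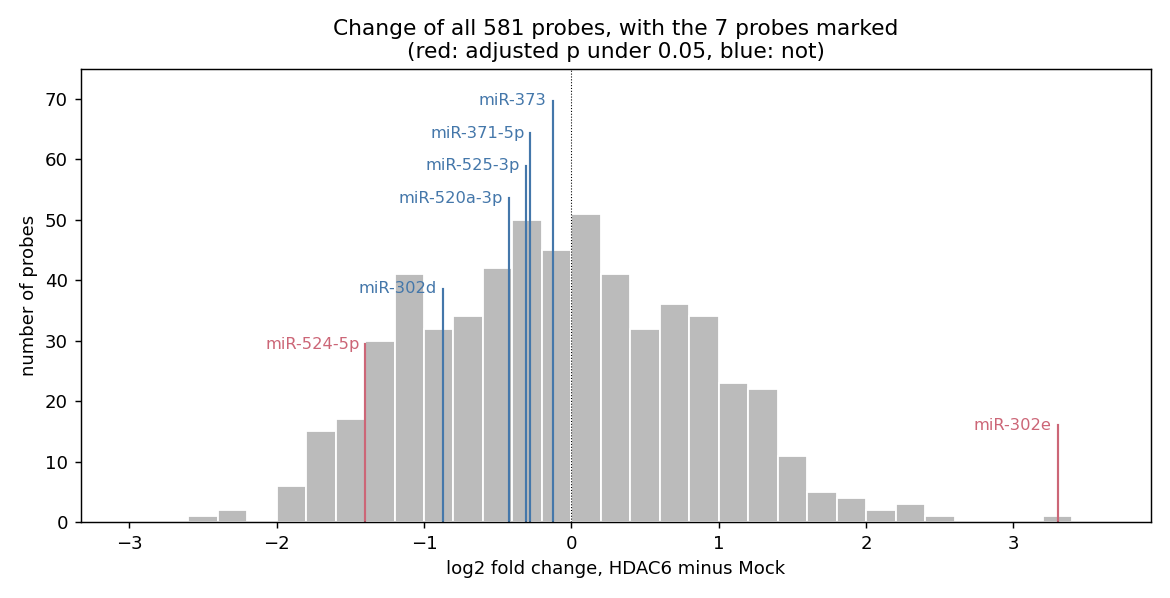
Number of probes (vertical axis) by log2 fold change, HDAC6 minus Mock (horizontal axis), for all 581 probes, with lines for the 7 members, red where the adjusted p was under 0.05 and blue where not. MiR-302e at 3.30 stands beyond all other probes, miR-524-5p at -1.40 lies in the lower tail, and the other 5 lie between -0.87 and -0.13.

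The miR-17 family, promoters of proliferation whose seed AAAGUGC overlaps that of miR-302 in 6 bases shifted by 1 position, was a list set beside the members. Of its 6 measured probes 4 fell, 0 rose and 2 did not pass, with a median log2 fold change of -1.17. For this list and the next, the background is that 29.5% of guide strands and 24.4% of all probes were called lower. The medians were -0.21 for guide strands and -0.09 for all probes. MiR-20b was at -1.33 (SE 0.257, limma, adjusted p = 0.00532), miR-93 at -1.20 (SE 0.248, adjusted p = 0.0075), miR-17 at -1.14 (SE 0.287, adjusted p = 0.0154) and miR-20a at -1.34 (SE 0.342, adjusted p = 0.0155). The count of 4 ranged from 3 to 6 under the 15 alternatives. Whether this family changed more than the members with the miR-302 seed was not tested. In the let-7 family, which in mouse embryonic stem cells opposes the miRNAs of the miR-302 type, 1 of 8 measured probes fell (let-7i at -1.56, SE 0.224, adjusted p = 0.0028) and 0 rose, with a median of -0.54. That count of 1 became 2 or 3 under 6 of the 15 alternatives, among them without Mock array 1 or Mock array 2 (2 each) and with the replicate number as a block (3).

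The guide-strand probes whose signals followed miR-302e most closely over the 6 arrays were miR-575 (Pearson r = 0.998), miR-1203 (r = 0.993), miR-297 (r = 0.992), miR-574-5p (r = 0.992) and miR-665 (r = 0.989). All 5 rose, by 1.08 to 2.44 on the log2 scale against 3.30 for miR-302e. For miR-524-5p the closest were miR-29b (r = 0.992), miR-374a (r = 0.991), miR-30a (r = 0.990), miR-429 (r = 0.989) and miR-20b (r = 0.988), which fell by 1.33 to 1.93. These r describe 6 arrays in separate groups, so any probe with a large change in the same direction scores high.

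**Figure D4:**
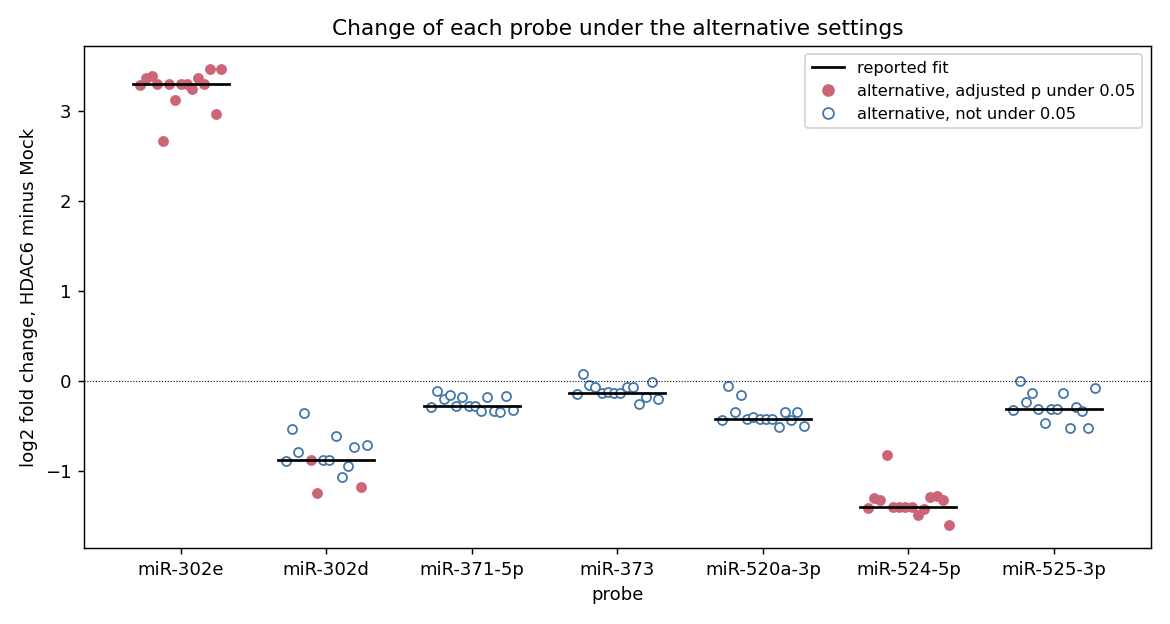
Log2 fold change, HDAC6 minus Mock (vertical axis), of the 7 probes (horizontal axis) in the reported fit (black line) and under each alternative setting (points, filled red where the adjusted p was under 0.05). All points of miR-302e lie between 2.66 and 3.47 and all of miR-524-5p between -1.60 and -0.81, while miR-302d passed under 3 of its 14 alternatives.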

How the data were processed

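MiRNA signals were measured on 6 GenoExplorer arrays with biotin-labelled RNA. Per the labels, Axon scans were quantified in GenePix Pro 5.0, spots of poor quality were taken out by visual check, each probe got the mean of 3 spots, and GenePlex 3.0 then applied quantile normalization and a class-specific filter. Neither the background correction nor the rule of that filter was given in the sources used here. That the deposited table is in log2 was read from its values (3.52 to 15.8, with the same highest value on all 6 arrays). Quantile normalization hides any change in total miRNA. The number of arrays limits the precision, and signal over background is unknown.

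Groups and replicate numbers came from the sample titles. With the empty let-7f row set aside, 581 probes were fitted. By their names alone, 386 were classed as guide strands, 83 as star strands, 104 as precursors and 8 as controls. HDAC6 was compared with Mock with limma (version 3.58.1, run in R 4.3.3, functions lmFit and eBayes, two-sided and without a covariate), with Benjamini-Hochberg adjustment over all 581 probes and a threshold of 0.05. The fit was also run on simulated, independent normal values with known changes, as a check of the calculation. Such values do not mimic pooled RNA or probes that vary together, so this run says nothing of the calls above. Differences between miR-302e and the other members were formed within arrays and put to exact permutation tests. The members and lists were chosen with earlier results of these data known. All members are named in the text. A separate rule for other miRNAs to name took star and precursor rows of the same numbers, per list at most 4 members in order of adjusted p, and the 5 guide strands with the highest correlation with miR-302e and with miR-524-5p. Sequences and positions are RefSeq's (GRCh38.p14), and no genome build comes with the arrays. Same-numbered arrays of the groups deviated together at r = 0.16, -0.0865 and 0.192, so the numbers were not taken as pairs. The alternatives were array centring on medians or on 7 control probes, repeated quantile normalization, brighter probes alone, an offset, a trend with robust priors, array weights, a replicate block, mature probes alone and leaving out each array.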

Additional observations from a re-analysis of the deposited data

How the results depend on the processing

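The miR-302e rise (2.663 to 3.467 on the log2 scale) and the miR-524-5p fall (-1.6 to -0.8142) kept direction and call under every alternative run. MiR-302d passed the threshold with a trend and robust priors (value unchanged at -0.871), with array weights (-1.241) and without HDAC6 array 2. In those 3 settings 2 members were called lower, against 1 otherwise (1 to 2 over the arrays left out). Leaving out each array gave -1.169 to -0.6041 for miR-302d. Its fall was smaller with repeated quantile normalization (-0.526) and with the offset (-0.3521), neither past the threshold. With repeated quantile normalization, which moved the median of all probes from -0.0851 to 0.0754, miR-373 turned to 0.07776, miR-525-3p to 0.001442, miR-373* to 0.05883 and miR-518b-pre to 0.07686. MiR-373* also turned with array weights (0.04906), and leaving out arrays gave -0.331 to 0.2403, above 0 without Mock array 1 (0.05684) or HDAC6 array 2. The cause of these turns was not tested. Calls over all probes went from 124 higher and 142 lower to 81 and 85 with control-probe centring. Lower calls were 93 without HDAC6 array 1, and 81 among brighter probes, where fewer probes were tested and miR-302e was the sole member. The replicate block gave 3.3 for miR-302e (adjusted p = 0.006) and -1.397 for miR-524-5p (adjusted p = 0.00761), -0.871 for miR-302d (adjusted p = 0.0998), and changed no call of a member. Not every array correlated best with its own number. The within-array differences between miR-302e and the other members ranged from 2.73 to 5.067 under the alternatives run for them.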
